A study of Mus musculus with 333 samples.

Results

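The cells described here are the 6 single cells of the adult mouse visual cortex that carry the cell type label purple, a colour name to which the labels attach no meaning. They were taken by that label and by a title naming the adult visual cortex. They are 6 of the 7 purple cells and 6 of the 333 cells in the series. How the cell type labels were assigned, and whether expression was used for it, is not stated in them. The comparison group was every other adult visual cortex cell with a named type, 54 cells: 23 Endothelial, 11 Microglia, 10 Astrocyte, 6 Myelinating Oligodendrocyte and 4 OPC (oligodendrocyte precursor cells). All 60 cells were from wildtype adult mice with no treatment given in the labels. Single cells had been sorted by FACS and isolated in a Fluidigm C1 instrument, and each cell gave its own poly(A) cDNA library; the sorting gates are not described in the labels. The series describes 5 mice per age, but no label ties a cell to a mouse, so each group counts as 1 sample, no test between groups was run, and all differences below are descriptions of these cells. Microglia cells 1 and 6 were nearly identical (Pearson r = 0.99 over genes, against at most 0.64 for any other pair in the series) and were counted as 1 cell by their mean, which leaves 53 comparison cells.

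The choroid plexus is a fringe of vessels covered by a cuboidal epithelium that projects into the brain ventricles and secretes cerebrospinal fluid. Its epithelial cells make transthyretin (Ttr), the carrier of thyroid hormone and of retinol-binding protein, in very large amounts, and they move sodium, chloride, bicarbonate and water towards the ventricle through pumps, exchangers and channels. Mural cells, the pericytes and smooth muscle cells, belong to a different lineage and wrap the walls of capillaries and arterioles.

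The purple label held cells of more than 1 marker profile. Adult cells 9, 10, 17, 23 and 45 had 16 to 19 of 20 choroid plexus epithelium markers at 10 CPM or more (CPM, the reads of a gene scaled by the total reads of its cell). Cell 7 had only Ttr and Enpp2 above that level, at 51.8 and 58.2 CPM, and no read of the other 18. Cell 7 instead had 11 of 14 pericyte and smooth muscle markers at 10 CPM or more, 81890 CPM in sum, against 0 to 15 CPM in sum in the other 5 purple cells. Some cells of the comparison group also went against their label. Endothelial cell 38 had 16 of the 20 choroid plexus markers at 10 CPM or more, with 49.2 CPM of 12 endothelial markers in sum. Endothelial cell 52 had 10 of the 14 pericyte and smooth muscle markers, with 4.52 CPM of endothelial markers. The other 21 Endothelial cells had 14307 to 50555 CPM of endothelial markers. Results are therefore given for all cells and, where they move, without purple cell 7 and Endothelial cell 38. This choice was made after the values were seen.

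**Figure D1:**
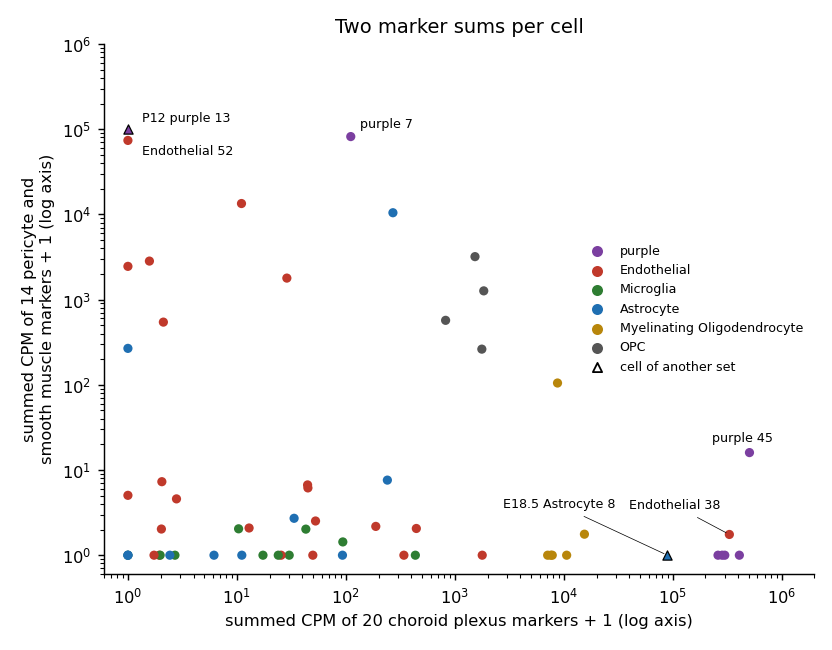
Summed level of 20 choroid plexus markers (x axis) and of 14 pericyte and smooth muscle markers (y axis) in each cell, in CPM plus 1 on log axes; each circle is an adult visual cortex cell coloured by label, and triangles are the P12 purple cell 13 and the E18.5 cell 8 labelled Astrocyte. Of the purple cells 5 lie at the lower right with Endothelial cell 38. Purple cell 7 lies at the top, at a height close to that of Endothelial cell 52 and the P12 purple cell. It lies to their right, with 110 CPM of choroid plexus markers against 0 CPM in each of them.

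The purple libraries held 1081982 to 3313408 reads in genes (median 2237200) and the 53 comparison cells 387165 to 2660212 (median 977238). With every cell thinned to 350000 reads, the purple cells had 1613 to 2675 detected genes (median 2193) and the comparison cells 1098 to 3391 (median 1665), so the ranges overlapped. Pooled over cells, 9041 genes reached 10 CPM in either group. Of these, 1977 genes (21.9%) were at least 2-fold higher and 5565 (61.6%) at least 2-fold lower in the purple cells, with a median log2 ratio of -2.91, where 1 CPM is added to both levels before the ratio. The comparison pool holds 5 cell types, and Ttr and Enpp2 took 24.3% to 48.7% of the reads in each of the 5 purple cells with choroid plexus markers; the part of either in that median was not tested. Each count of list members below is to be read against these shares. Other scalings gave a median over all genes of -2.71 (TMM) and -2.28 (median of ratios), shifts of 0.145 and 0.447 in every gene's ratio before the 1 CPM is added.

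Ttr was the highest gene by reads in cells 9, 17, 23 and 45 and came after Enpp2 in cell 10. Its level was 210060 CPM in cell 9, 120141 in cell 10, 214221 in cell 17, 168542 in cell 23 and 427446 in cell 45, and 51.8 CPM in cell 7. Cell 7 thus stood apart from the others. Its level was within the range of the comparison cells other than cell 38, which ran from 0 to 139 CPM with a median of 0. Endothelial cell 38 had 191578 CPM, inside the range of the 5. Pooled, Ttr was at 191879 CPM in purple cells (95% Poisson interval 191641 to 192118, counting error only) and at 8806 CPM (8782 to 8830) in the comparison cells, a log2 ratio of 4.45. Without cells 7 and 38 the pools were at 209322 and 9.28 CPM, a log2 ratio of 14.31. Nearly all Ttr reads of the comparison pool were thus those of cell 38.

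A few Ttr reads occurred widely in the adult set. Of the 52 comparison cells other than cell 38, 24 had a Ttr read (46.2%, exact binomial interval 32.2% to 60.5%), at a median depth of 974667 reads. In the other sets 13 of 270 cells had one (4.81%, 2.59% to 8.09%), at a median depth of 1360624 reads. These intervals cover the counting of cells only and do not hold the spread between mice. The difference between the sets and the source of these reads were not tested.

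**Figure D2:**
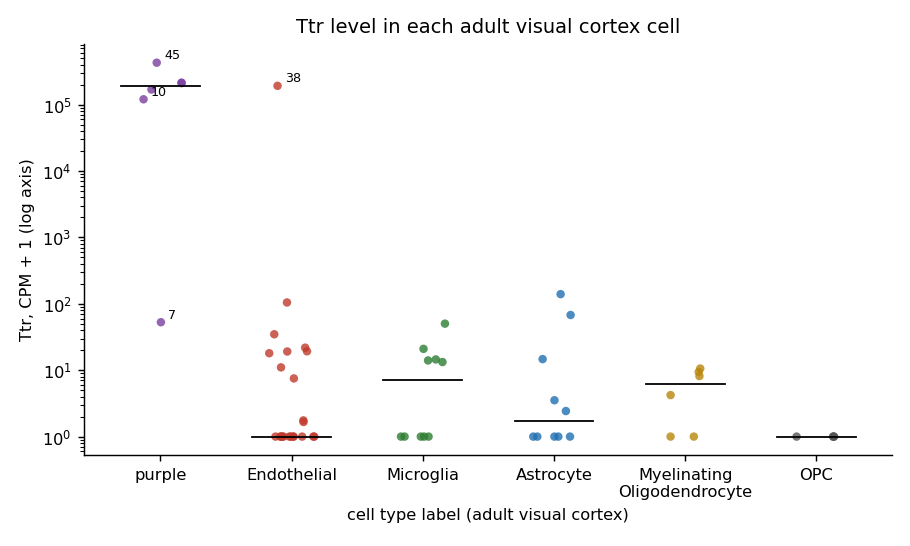
Ttr level (CPM plus 1, log axis) in each adult visual cortex cell by cell type label; each point is a cell, numbers name single cells and black bars are medians. Of the 6 purple cells 5 lie between 120141 and 427446 CPM with Endothelial cell 38 beside them at 191578, and purple cell 7 lies at 51.8 CPM among the remaining cells.

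Enpp2 encodes autotaxin, a secreted enzyme that makes lysophosphatidic acid and that oligodendrocytes also make. It was at 60543 CPM in cell 9, 123055 in cell 10, 181009 in cell 17, 115965 in cell 23, 59290 in cell 45 and 58.2 in cell 7. The Myelinating Oligodendrocyte cells had a median of 8301 and a highest value of 15470 CPM, and the OPC a median of 1597 CPM, so the 5 were above every comparison cell but cell 38, which had 124108 CPM. Per kilobase of annotated exon, which allows for gene length, Ttr had a median of 177116 CPM per kb over the 5 cells and Enpp2 20067 CPM per kb. The length is the union of all annotated exons and may exceed that of the transcript in these cells. On the same scale Ecrg4, Kcnj13, Sostdc1 and Folr1, described below, had medians of 1660, 1164, 757 and 445 CPM per kb, and Otx2 of 7.66.

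The other choroid plexus markers were spread over several roles. Of the 20 markers, all reached 10 CPM in either group and 19 were at least 2-fold higher in purple cells with a median log2 ratio of 4.54; 7 of the 20 passed the minimum only through the purple cells. The median was 9.31 without cells 7 and 38, against -3.59 over all 8952 genes measured there, of which 1854 (20.7%) were at least 2-fold higher and 5782 (64.6%) at least 2-fold lower. In that comparison 18 of the 20 markers passed the 10 CPM minimum only through the purple cells, so in neither version do the count and the median carry weight of their own, and the values by cell are given instead. The exception among the 20 was Trpv4, a cation channel, at a log2 ratio of -0.47; it was at 50.1 and 123 CPM in cells 10 and 23 and at 1784 CPM in 1 comparison cell.

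Kcnj13 (GRCm38 1:87386363-87394729, minus strand, in the GENCODE vM21 annotation) encodes an inward-rectifier potassium channel of epithelia. It was at 2075, 672, 275, 1479 and 2604 CPM in cells 9, 10, 17, 23 and 45, without a read in cell 7, and at no more than 0.676 CPM in any comparison cell other than cell 38 (1102 CPM). Clic6, a chloride intracellular channel family member, was at 449 to 1663 CPM in the 5 and at no more than 2.52 CPM in those comparison cells. Car12, a carbonic anhydrase, was at 273 to 1866 CPM against at most 1.65 CPM. For Kcnj13, Clic6 and Car12 the groups did not overlap once cells 7 and 38 were left out, a choice made on this marker list.

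Among markers of other roles, the prolactin receptor Prlr was at 935, 1600, 1985, 4119 and 305 CPM in cells 9, 10, 17, 23 and 45, against at most 2.30 CPM in comparison cells other than cell 38 (732 CPM). The folate receptor Folr1 was at 640, 587, 1022, 1203 and 1801 CPM, against at most 42 CPM, with 1690 CPM in cell 38. Kl, which encodes Klotho, the co-receptor of fibroblast growth factor 23, was at 1440, 537, 3689 and 5670 CPM in cells 9, 10, 17 and 45 but had no read in cell 23. The serotonin receptor gene Htr2c, which is not in the marker list and is named after its values were seen, was at 202, 54.6, 45.8, 119 and 27.9 CPM in the 5, with 166 CPM in cell 38 and no read in the 52 others. F5, coagulation factor V, was at 68.2, 1989, 935, 380 and 2852 CPM against at most 1.79 CPM. Cell 23 was thus the highest of the 5 for Prlr and had no Kl read.

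Members of the list were not uniform among the 5. Kcne2, a potassium channel subunit, was at 325 to 1960 CPM in 4 cells and without a read in cell 45. Cldn2, a tight junction claudin that forms cation and water pores, was at 710, 2183 and 110 CPM in cells 9, 10 and 17 and had no read in cells 23 and 45. Aqp1, the apical water channel, was at 131 CPM in cell 9, had 0.369 CPM in cell 10 and no read elsewhere. Otx2, a homeodomain factor needed to form the choroid plexus, was at 111, 1231, 32.3 and 15.7 CPM in cells 9, 10, 23 and 45, had no read in cell 17 and was at 769 CPM in cell 38. Pooled over all cells, Otx2 was at 292 CPM in the purple cells and at 82.8 CPM in the Endothelial cells. All comparison reads of Otx2 were those of cell 38. That cell is left out elsewhere for carrying these markers, so no fold without it is given.

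**Figure D3:**
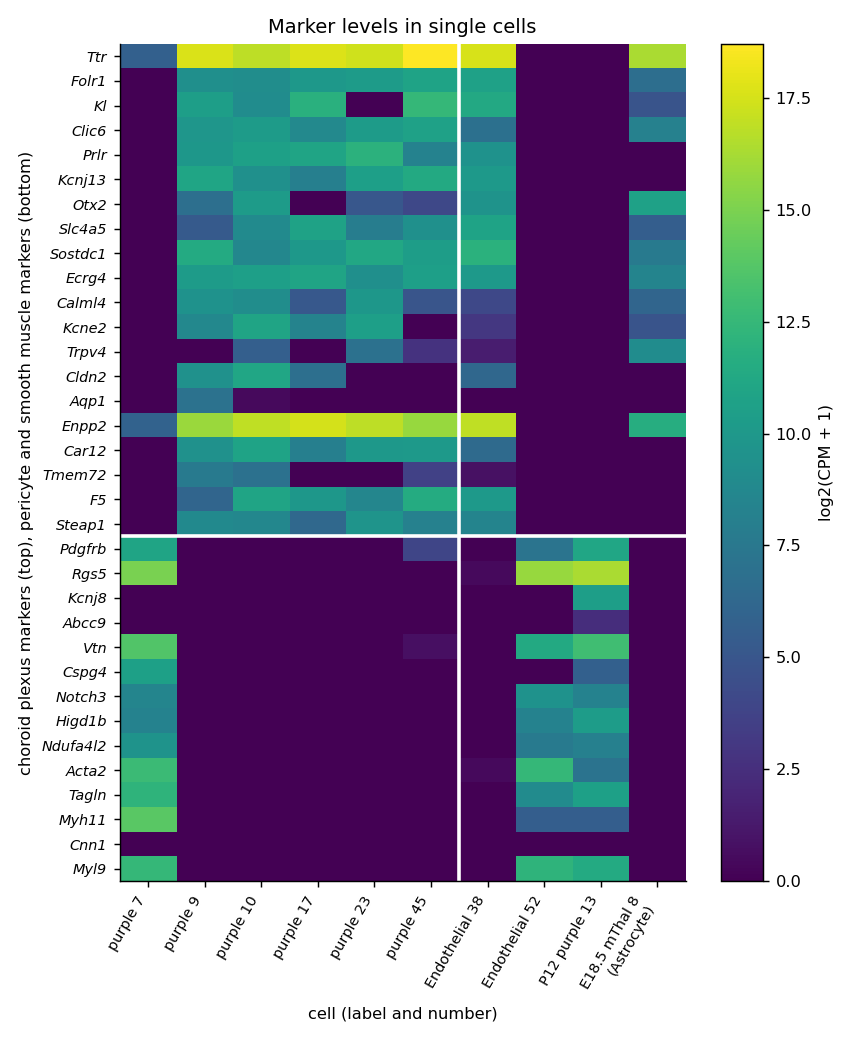
Level of each marker, log2(CPM + 1) by colour, for 20 choroid plexus markers (above the white line) and 14 pericyte and smooth muscle markers (below) in the 6 purple cells and 4 other cells, which are named under their columns. Purple cells 9, 10, 17, 23 and 45 and Endothelial cell 38 fill most of the upper block. The E18.5 cell 8 fills it in part, with 12 of 20 markers at 10 CPM or more. Purple cell 7, Endothelial cell 52 and the P12 purple cell 13 fill most of the lower block.

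The list of 22 genes for ion and water transport shares 7 members with the choroid plexus markers. Of its other 15 genes 13 were measured, 2 of them only through the purple cells, and 7 were at least 2-fold higher with 2 lower (median log2 ratio 1.04). The median was 0.68 without cell 7 and 1.40 without cells 7 and 38. Atp1b1, the beta subunit of the sodium pump that choroid epithelium carries apically, was at 1349, 1788, 1558, 317 and 391 CPM in the 5 and 38.8 CPM in cell 7, against at most 7.49 CPM in comparison cells other than cell 38 (142 CPM). Slc4a5, a sodium bicarbonate cotransporter, is 1 of the 7 shared members. It was at 38.3 to 1763 CPM in the 5 and at no more than 3.06 CPM in those comparison cells. Fxyd1, a regulator of the sodium pump, was at 118 to 776 CPM in the 5 and 16.6 CPM in cell 7, with up to 703 CPM in comparison cells. Car2, the cytosolic carbonic anhydrase, was at 304 to 4743 CPM in the 5 and reached 27546 CPM in comparison cells. Slc12a2, the sodium potassium chloride cotransporter, did not separate the groups: it was at 0 to 682 CPM in the 5, 1983 CPM in cell 7 and up to 3572 CPM in comparison cells.

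Of the 20 secreted and carrier proteins 4 are also choroid plexus markers, Ecrg4 and Sostdc1 among them. Of the other 16 genes 15 were measured, 2 only through the purple and 3 only through the comparison cells, with 8 higher and 5 lower (median 1.45). Ecrg4, a secreted peptide precursor that the files give as 1500015O10Rik, was at 1246, 1509, 1975 and 1498 CPM in cells 9, 10, 17 and 45, lowest of the 5 in cell 23, and at no more than 0.895 CPM in comparison cells other than cell 38. Sostdc1, an inhibitor of BMP and Wnt signalling, was at 411 to 2725 CPM against at most 107 CPM. Clu, clusterin, was among the 4 highest genes of each of the 5 cells, at 9705, 7846, 10013, 6026 and 5448 CPM, with up to 10312 CPM in comparison cells. Ptgds, prostaglandin D synthase, was at 1378 to 3175 CPM in the 5 and 0.924 CPM in cell 7. Ptgds was not particular to them: the Myelinating Oligodendrocyte cells had a median of 2514 and a highest value of 10864 CPM. In 1 cell labelled Astrocyte (cell 30) it was the highest gene, at 39090 CPM. The next genes of that cell were Itih5, Utp14b, Flrt2, Ccl2, Ccdc80 and Vtn, and it is named here by its label only. Igf2, an insulin-like growth factor, was uneven, at 884 and 465 CPM in cells 9 and 45 and at 14.7, 64.5 and 0.522 CPM in cells 10, 17 and 23. Among 20 vitamin, hormone and solute transporters 17 were measured, 5 of them only through the comparison cells and 1 only through the purple cells, with 8 higher and 8 lower (median -0.44). Slco1c1, a thyroid hormone transporter, was at 1128 to 6406 CPM in the 5, without a read in cell 7, but reached 9001 CPM in comparison cells. Slc13a4, a sulfate transporter, was at 20.5, 377, 1792, 98.1 and 7.86 CPM in the 5 and at no more than 98.7 CPM in comparison cells other than cell 38. Slc22a8, an organic anion transporter, was at 14.4 CPM in cell 10 alone among the purple cells, against up to 13716 CPM in comparison cells.

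The junction, patterning and cilium lists were filled by few members: 9 of 16, 10 of 16 and 6 of 15 genes were measured. Of these, 6 junction genes were higher and 3 lower, and 5 patterning genes were higher and 4 lower. In the junction list 4 genes passed the minimum only through the purple cells and 2 only through the comparison cells, and in the patterning list 3 and 4. Krt18, a simple-epithelium keratin, was at 105, 8.48, 1641, 46.9 and 302 CPM in the 5 and had no read in the 52 comparison cells other than cell 38 (276 CPM). Cldn1, a sealing claudin, was at 42.4, 1276 and 1139 CPM in cells 10, 17 and 45, had no read in cells 9 and 23 and none in the comparison cells. Spint2, a protease inhibitor of epithelia, was at 347, 213, 14.1, 20.9 and 2390 CPM in the 5. Epcam and Cdh1, both general epithelial adhesion genes, had no read in any purple cell. Lmx1a, a roof plate factor, was at 73.6 and 403 CPM in cells 9 and 10 and at 0.391 CPM or less in the other 3. All 6 measured cilium and ependymal genes passed only through the purple cells. Tekt1, which encodes a filament protein of axonemes, was at 190, 1031, 793 and 529 CPM in cells 9, 10, 23 and 45 and had no read in cell 17. Foxj1, the master regulator of motile cilia, had at most 0.302 CPM in any purple cell, and Tmem212 and Ccdc153, ependymal markers, had no read.

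Promoter windows from RefSeq (GRCm38.p6, 250 bases before to 50 after a start site) were looked up for all members of the 2 marker lists. Members without a read in the purple cells, such as Abcc9, were included. Windows were found for 14 of the 20 choroid plexus markers, 20 windows in all since a gene may have several start sites, and for 9 of the 14 mural markers, 9 windows in all. The hexamer TAATCC, which OTX-type homeodomain proteins bind, or its reverse complement GGATTA was in 7.06% of all 32851 windows and in 1 of 20 windows of the choroid plexus markers, that of Otx2, and in 1 of 9 mural windows, that of Abcc9. The CArG box, which serum response factor binds in smooth muscle genes, was searched for likewise on both strands; it was in 1.63% of all windows, in 0 of the 20 and in 1 of 9 windows of the mural markers, that of Myl9, the regulatory light chain of smooth muscle myosin. Both windows are shown 5′ to 3′ on the gene's strand with the match in capitals, as a description of these letters only. The Otx2 window lies at chr14:48665060-48665359 on the minus strand and its match begins 211 bases before the start site. The Myl9 window lies at chr2:156775214-156775513 on the plus strand and its match begins 161 bases before the start site.
Otx2: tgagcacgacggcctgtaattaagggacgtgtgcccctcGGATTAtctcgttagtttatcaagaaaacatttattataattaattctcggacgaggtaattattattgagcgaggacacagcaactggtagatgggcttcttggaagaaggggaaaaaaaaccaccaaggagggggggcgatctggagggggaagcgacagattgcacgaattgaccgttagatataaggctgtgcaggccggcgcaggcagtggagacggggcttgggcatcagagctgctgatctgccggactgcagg
Myl9: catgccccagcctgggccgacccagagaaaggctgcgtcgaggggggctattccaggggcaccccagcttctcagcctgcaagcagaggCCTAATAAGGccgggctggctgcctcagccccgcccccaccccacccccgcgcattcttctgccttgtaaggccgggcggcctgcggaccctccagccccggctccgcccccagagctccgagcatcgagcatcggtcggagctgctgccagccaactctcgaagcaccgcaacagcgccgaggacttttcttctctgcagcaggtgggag

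By the rule for named genes (at least 50 CPM, a read in at least 5 purple cells, and at least 2-fold whichever purple cell is left out), 186 of the 9041 measured genes qualified as higher. The 20 with the largest ratio were taken. Of the 20, 7 were among the choroid plexus markers: Calml4, Car12, Clic6, Prlr, Kcnj13, Steap1 and Ttr. That list holds 20 of the 9041 genes and was chosen with earlier results of these data known, so the 7 carry no weight of their own. Ttr came last of the 20 genes by ratio, and nearly all of its comparison reads were those of cell 38. Without cells 7 and 38 the log2 ratios of the 20 genes ran from 3.78 for Prelp to 14.31 for Ttr, and their order differed. The rule already required at least 2-fold without cell 7, so these values are no separate support. Calml4, a calmodulin-like protein, had a log2 ratio of 7.66, and of 8.32 without these cells. Its level in the 5 was uneven, at 733, 574 and 973 CPM in cells 9, 10 and 23 and 34.4 and 29.3 CPM in cells 17 and 45, which is below the highest comparison cell (37.4 CPM). Atp2b3, a plasma membrane calcium pump, had no read in the comparison cells and was at least 3579-fold higher against a floor of 3 reads over that group, but 834 CPM of it lay in cell 10 and 8.34 to 53.6 CPM in the other 4. Rdh5, a retinol dehydrogenase, was at 48.6 to 1682 CPM in the 5 and Slc29a4, a monoamine transporter, at 5.22 to 2103 CPM. Prelp, a matrix proteoglycan, was highest in cell 7, at 7493 CPM, and at 1.17 to 861 CPM in the other purple cells.

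With all cells kept, 0 of the 9041 genes (0%) had every purple cell above every comparison cell. Without purple cell 7 and Endothelial cell 38, 28 of 8952 genes (0.313%) did, and 12 of the 20 choroid plexus markers were among them. Both cells were left out after their levels of these same markers were seen, so the separation of the 12 was built into that choice. In that version 18 of the 20 passed the 10 CPM minimum only through the purple cells. The 28 also held Htr2c, Ppp1r1b, Prdx5, Atp5g1 and Lbp, named here after their values were seen. Ppp1r1b, the phosphatase inhibitor DARPP-32, was at 440, 439, 425, 533 and 323 CPM in the 5 and at no more than 1.65 CPM in the comparison cells. Cell 38, left out here, had 1063 CPM. Prdx5, a peroxiredoxin, was at 321 to 992 CPM against at most 73.0 CPM, and Atp5g1, a subunit of ATP synthase, at 928 to 2050 CPM against at most 756 CPM.

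Most oxidative phosphorylation genes, which make ATP in mitochondria, were higher in the pooled purple cells. Of 21 oxidative phosphorylation subunits found, all 21 were measured, 1 of them only through the comparison cells, and 16 were at least 2-fold higher with 2 lower (median log2 ratio 1.57, and 2.07 without cells 7 and 38). Summed over the list, the level was 12270, 15667, 4649, 8777 and 6457 CPM in cells 9, 10, 17, 23 and 45 and 1636 CPM in cell 7. The comparison cells ran from 2.30 to 10430 CPM with a median of 1874, so the groups overlapped. Cox6c, a subunit of cytochrome c oxidase, was at 546, 235, 233, 414 and 229 CPM in the 5 and 53.6 CPM in cell 7, with a median of 5.81 and a highest value of 291 CPM in comparison cells other than cell 38. Ndufa4, another small subunit, was at 458, 1068, 647, 838 and 769 CPM in the 5, without a read in cell 7, and reached 744 CPM in those cells. Several of these genes have processed pseudogenes, with which reads may be shared. The purple libraries were deeper at the median, and the part of depth in this difference was not tested.

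Of 16 genes for glutathione and oxidative defence 15 were measured, with 10 higher and 1 lower (median 1.76). Summed over the list, the level was 5221 to 8991 CPM in the 5 purple cells other than cell 7. Astrocyte cells had a median of 5569 and a highest value of 10417 CPM, and Endothelial cells reached 12032 CPM, so the groups overlapped. Pooled, Gstm1 and Prdx6 were at 1395 and 1526 CPM in Astrocyte cells, above the 320 and 758 CPM of the purple cells. Sod1, the cytosolic superoxide dismutase, was at 2561, 1092, 1031, 1834 and 1661 CPM in the 5 and 0.924 CPM in cell 7, with 305 CPM as the median and 3568 CPM as the highest of the comparison cells other than cell 38. Gpx4, which reduces lipid peroxides, was at 1709, 1103, 490, 1397 and 455 CPM in the 5 and 719 CPM in cell 7, with a median of 0.554 and a highest value of 921 CPM in those cells. The lists of broadly used genes had medians of -0.20 (cytosolic ribosomal proteins, 2 of 18 higher and 1 lower), -0.10 (lysosome and endocytosis, 3 of 16 higher and 4 lower) and -0.15 (secretory pathway, 0 of 16 higher and 7 lower). The secretory median was -0.74 without cell 7 and ran from -1.03 to 0.18 when single purple cells were left out. Those 3 medians turned positive under median-of-ratios scaling (0.25, 0.34 and 0.30), so no direction is given for them.

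Immediate early genes, which many cells switch on within minutes of a stimulus, were at or near 0 in 4 of the 5 choroid plexus marker-bearing cells and low in the fifth. Summed over 14 such genes, the level was 1.21, 4.79, 1.96, 190 and 5.72 CPM in cells 9, 10, 17, 23 and 45 and 20859 CPM in cell 7. In cell 23 nearly all of it was Egr1, at 186 CPM. Endothelial cell 38 had 58.3 CPM. The 21 Endothelial cells other than 38 and 52 had 9317 to 60033 CPM and Microglia 3880 to 59547 CPM, with no overlap with the 5. Myelinating Oligodendrocyte cells had 191.9 to 27771 CPM and OPC 260.8 to 7304 CPM. Their lowest values were thus close to that of purple cell 23, at 189.8 CPM. Endothelial cell 38 was below purple cell 23. The Astrocyte cells ran from 9.21 to 10455 CPM (median 403) and overlapped the 5.

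Fos, a transcription factor subunit, was at 0.302, 3.32, 0.391, 2.09 and 0.715 CPM in the 5, against a median of 2165 CPM in comparison cells other than cell 38, of which 46 of 52 had at least 10 CPM. Egr1, a zinc-finger factor, was at 16680 CPM in cell 7 and at 0 to 186 CPM in the 5. Of the 14 genes 13 were measured and all 13 were at least 2-fold lower, with a median log2 ratio of -6.16; 6 of them passed the minimum only through the comparison cells. Without cells 7 and 38 the median was -9.43, and 12 of the 13 passed only through the comparison cells. In the all-cell comparison the purple reads of this list were thus mostly those of cell 7.

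Antigen presentation and interferon genes summed to 0 to 838.5 CPM in the 5 (median 24.2) and 1.85 CPM in cell 7. The medians were 3009 CPM in Endothelial and 5973 CPM in Microglia cells but 8.60 CPM in Astrocyte and 12.8 CPM in Myelinating Oligodendrocyte cells, so the low level was shared with the last 2 types. Microglia cell 1 (the mean of cells 1 and 6) had Cd74, H2-Aa and H2-Ab1 among its highest genes, at 18160.5, 15694.5 and 10952 CPM. It is named here by its label only. All 13 measured members of 14 were at least 2-fold lower (median -6.72), 12 of them measured only through the comparison cells. B2m, the light chain of MHC class I, had no read in cells 9 and 10 and was at 11.3, 28.2 and 838 CPM in cells 17, 23 and 45 and 0.924 CPM in cell 7. Comparison cells other than cell 38 had a median of 184 CPM, and the Myelinating Oligodendrocyte cells, with at most 42.8 CPM, overlapped the 5. H2-D1, a class I heavy chain, had 1 read over all purple cells and was at 10 CPM or more in 29 of the 52. H2-K1 and H2-D1 are near-identical in parts and their reads may be split between them.

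**Figure D4:**
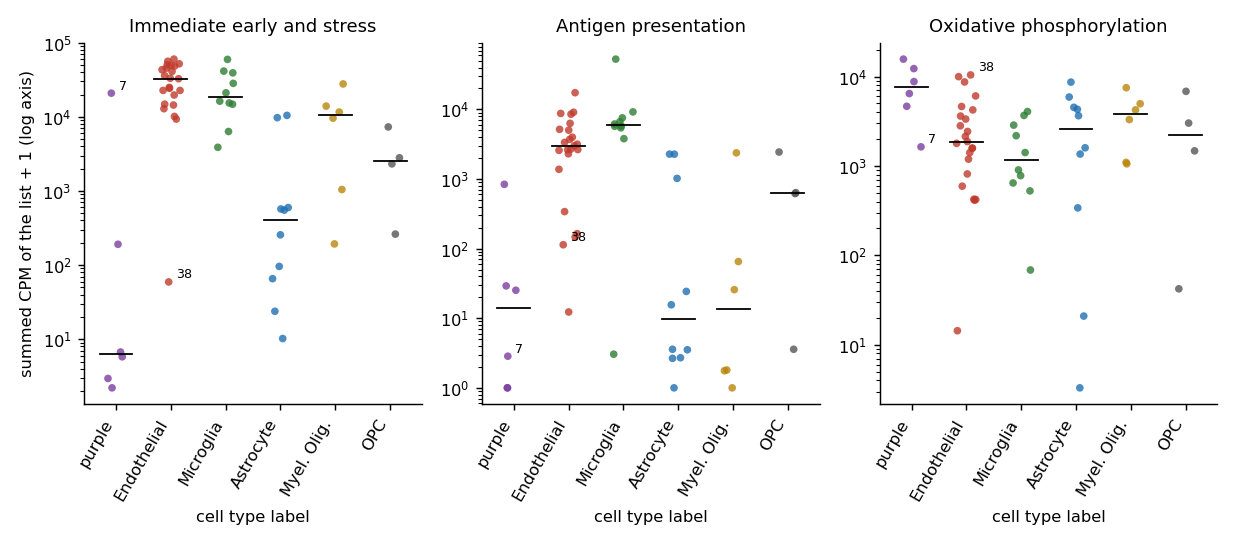
Summed level, by cell, of 14 immediate early and stress genes, 14 antigen presentation and interferon genes, and 21 oxidative phosphorylation subunits (CPM plus 1, log axes) in each adult cell by label; points are cells, black bars are medians, and cells 7 (purple) and 38 (Endothelial) are numbered. In the left panel the purple cells other than cell 7 lie under 200 CPM with Endothelial cell 38 at 58.3, while cell 7 lies at 20859 CPM.

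Markers of other cell types were at or near 0 for some lists and reached higher sums in single cells for others. The 12 microglia markers summed to 0 to 3.32 CPM and the 12 myelin markers to 0 to 9.24 CPM. Endothelial markers summed to 0 to 1174 CPM and were nearly all Slco1a4, an organic anion transporter, in cells 9 (1174 CPM) and 10 (546 CPM), and Itm2a in cell 45 (549 CPM). Cldn5, Tek, Kdr and Egfl7, defining endothelial genes, had no read in any purple cell. Astrocyte markers summed to 0 to 1987 CPM, highest in cell 45, where 6 of 12 reached 10 CPM, against 7143 to 66837 CPM and 3 to 10 of 12 in Astrocyte cells. Most of it was Slc1a2, a glutamate transporter, at 1709 CPM. In cell 7, fibroblast markers summed to 1955 CPM, mostly Ogn (1791 CPM), OPC markers to 1591 CPM, all Cspg4, which is also in the mural list, and neuron markers to 836 CPM, all Map2. In the other 5 cells these 3 lists summed to at most 536 CPM (cell 23), 19.9 CPM (cell 17) and 236 CPM (cell 10). Newly formed oligodendrocyte markers summed to 0 to 785 CPM over the 6 cells, highest in cell 9. The part of such RNA in any difference was not tested. No proliferation marker was measured.

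Among the 10 genes named as lower, chosen by the rule from the 262 of 9041 measured genes that qualified, several mark other types. Neat1, a nuclear long noncoding RNA, had no read in the 6 purple cells and a read in 42 of 53 comparison cells, at least 8910-fold lower against a floor of 3 reads over the purple group. Gatm, an enzyme of creatine synthesis, had no read in the purple cells either and was at least 6004-fold lower. Jun, an immediate early factor, had 4 reads, all in cell 17. Flt1 and Ptprb, endothelial receptors, and Ctss and Cx3cr1, microglial genes, had 1 to 5 reads over the purple cells. Neat1 was thus not detected in purple cells of either marker profile. This was not particular to them, since the OPC cells had no Neat1 read either.

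**Figure D5:**
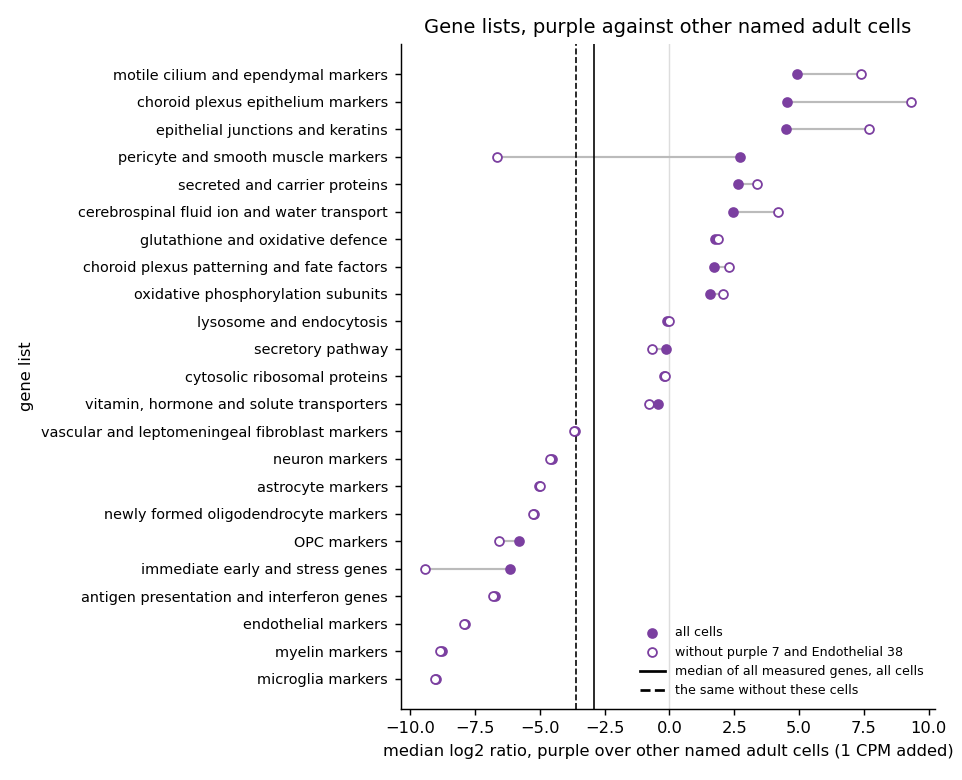
Median log2 ratio of purple over other named adult cells for each gene list with more than 2 measured genes; filled circles use all cells, open circles leave out purple cell 7 and Endothelial cell 38, and vertical lines are the medians of all measured genes (-2.91, and -3.59 dashed). The choroid plexus markers move from 4.54 to 9.31, and the pericyte and smooth muscle markers from 2.73 to -6.65.

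Cell 7 was led by mural genes. Its highest gene was Rgs5 (GRCm38 1:169655501-169695813, plus strand), a regulator of G-protein signalling that marks pericytes, at 31710 CPM. Contractile genes were also high: Myh11, smooth muscle myosin heavy chain, at 15650 CPM, Acta2, smooth muscle actin, at 6820 CPM, Myl9 at 5568 CPM and Tagln, transgelin, at 4662 CPM. Vtn, vitronectin, was at 12476 CPM and Pdgfrb, the platelet-derived growth factor receptor of mural cells, at 1966 CPM. In the other 5 purple cells Rgs5, Myh11, Acta2, Myl9 and Tagln had no read, and Pdgfrb was at 14.3 CPM in cell 45 only. Kcnj8, Abcc9 and Cnn1, also in the list, had no read in cell 7. The pooled mural list had 10 of 11 measured genes at least 2-fold higher in purple cells (median log2 ratio 2.73), with 5 of the 11 measured only through the purple cells. Without cell 7 the median was -6.58 over 6 genes, all measured only through the comparison cells.

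The single purple cell of the P12 visual cortex (postnatal day 12, cell 13, 2022849 reads) had a profile like that of cell 7 in these markers. It had no Ttr or Enpp2 read, and 12 of the 14 mural markers at 10 CPM or more, 99187 CPM in sum. Rgs5 was at 81133 CPM, Vtn at 8029 CPM and Pdgfrb at 2179 CPM. It differed from cell 7 in Kcnj8, a pericyte potassium channel, at 1408 CPM against no read, and in Myh11 and Acta2, at 47.5 and 137 CPM against 15650 and 6820 CPM. Endothelial cell 52 had Rgs5 at 59166 CPM, Acta2 at 5528 CPM and Myh11 at 46.3 CPM. These are 3 single cells, so no difference among them can be set against a spread.

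Over all genes, log2(CPM + 1) correlated at 0.36 to 0.48 among the 5 choroid plexus marker-bearing cells and at 0.41 to 0.48 between them and Endothelial cell 38. Cell 7 correlated with the 5 at 0.18 to 0.22, with the P12 purple cell at 0.33 and with Endothelial cell 52 at 0.33. The P12 purple cell correlated with the 5 at 0.26 to 0.32, close to its value with cell 7, and with Endothelial cell 52 at 0.36. Cell 38 correlated with the other Endothelial cells at 0.17 to 0.30. These correlations are across genes within pairs of sparse libraries of unequal depth and are given as a description.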

How the data were processed

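Single-cell poly(A) RNA libraries (SMARTer cDNA, Nextera XT) were deposited as 1 table of read counts per gene, whole numbers with no normalization. Per the submitters' processing notes, STAR and HTSeq 0.6.0 were used with mm10, without stated parameters. The 22074 rows carry upper-case symbols, of which 21274 matched mouse symbols.

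Counts were summed over purple and over other named adult cells, scaled to CPM, and compared as log2 ratios with 1 CPM added (python 3.11, pandas). Genes at 10 CPM or more in either group were called measured. Near-identical libraries (r above 0.95) were averaged. Libraries held 374574 to 4849603 reads; Poisson and exact binomial (Clopper-Pearson) intervals at 95% cover counting error only, since reads carry no molecular identifiers. No doublet caller was run. Named genes were the up to 20 higher and 10 lower with the largest ratio at 50 CPM or more in the higher group, with a read in at least 5 purple cells (for lower genes, in most of the comparison cells) and 2-fold whichever purple cell was left out; ribosomal protein, Gm, Rik and LOC symbols were left out. The members and the 26 gene lists were chosen with earlier results of these data known. The calculations were tested on simulated data. edgeR 4.0.16 gave the TMM factors. Alternatives were other minimums, pseudocounts and scalings, cells left out, and equal weights per type. Gene lengths are exon unions of GENCODE vM21. Cells without a named type entered no main comparison.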

Additional observations from a re-analysis of the deposited data

Results flagged for a closer look

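A check for a single value far from the rest of the 6 purple cells, by the ratio of the gap to the range (critical value 0.625), was run on 28 quantities, and 6 exceeded it. For independent samples chance gives about 1 in 20, but these are single cells not tied to mice, so the ratios are descriptions only. On the log2 scale of summed levels, cell 7 stood apart for the choroid plexus markers (ratio 0.921), the secreted and carrier proteins (0.870), the vitamin, hormone and solute transporters (0.656), the pericyte and smooth muscle markers (0.755) and the erythrocyte markers (1). The ratio of 1 is fixed wherever 5 cells have no read and the sixth has any, as for the erythrocyte markers and the next list, and says nothing more. Cell 9 stood apart for the border macrophage and leukocyte markers (1), of which it had 1 read, of Ptprc (0.302 CPM), and the other 5 cells none. The erythrocyte signal of cell 7 was Hba-a2 at 9.24 CPM, with no read in the others.

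Signal also appeared in cells outside the comparison. An E18.5 cell labelled Astrocyte (cell 8 of the E18.5 cells with mThal in their titles) had Ttr at 82779 CPM, against at most 120 CPM in the 270 remaining cells of the other sets. It had 12 of the 20 choroid plexus markers at 10 CPM or more, among them Otx2 at 1702 CPM, and 1 of 12 astrocyte markers. The P12 visual cortex purple cell 13 had Rgs5 at 81133 CPM.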

How the results depend on the processing

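The counts of genes at least 2-fold higher stayed within 1.5 times of 1977 under every alternative run, and so did the counts of lower genes (5565) except at a minimum of 50 CPM (2933), where fewer genes are measured. Leaving out each purple cell in turn gave 1814 to 1950 higher genes, 5590 to 5790 lower genes, and 0 to 8 genes without overlap, the 8 without cell 7. The median log2 ratio of the choroid plexus markers was then 4.40 to 4.67, and that of the pericyte and smooth muscle markers ran from -6.58, without cell 7, to 3.16. Alternatives chosen after seeing the data left out more cells. These cells were picked by their choroid plexus and mural markers, so the medians of those lists are no separate support. Without Endothelial cell 38, 2 genes had no overlap and the choroid plexus median was 9.19. Without purple cell 7 as well, these were 28 and 9.31, and without Endothelial cell 52 too, 28 and 9.31; the mural median was -6.65 and -6.89. No paired analysis was possible because cell numbers pair no cells and no test was run. Traces of a few reads per cell limit what can be said of genes at under 10 CPM.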
